A study of Mus musculus with 5 samples.

Results

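Proteasome genes were followed in thymic cells of mice exposed to dexamethasone, a synthetic glucocorticoid. The members were the genes whose symbol in the deposited expression table begins with Psm, a letter from a to g and a digit, leaving out Psmb11 and pseudogenes, and for each symbol the probe set that was highest on average over the 5 arrays was used. The rule found 42 symbols among 19764, and all 42 passed the filter on low signals. Of these, 36 are called standard members here (subunits, assembly chaperones, activators and an inhibitor), 5 are immunoproteasome members (Psmb8, Psmb9, Psmb10, Psme1 and Psme2), and 1, Psmc3ip, encodes a meiotic recombination factor and no proteasome protein. It is given apart at the end, and counts over members cover the other 41.

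Each of the 5 groups had 1 Affymetrix array, hybridised with RNA of pooled thymic cell suspensions. A pool held 3 males of the outbred CD-1 stock at 4 to 6 weeks of age. The first group had been injected intraperitoneally with 0.2 mg dexamethasone per mouse 4 h earlier, and the second with phosphate-buffered saline (PBS) 4 h earlier. The third was kept in culture with dexamethasone for 4 h, its dose being labelled 10e-7 M, the fourth was kept in culture with 0.1% ethanol for 4 h, and the fifth was untreated. The design sets each glucocorticoid sample against its vehicle sample. No gene was altered in these animals, and a single pool is the whole of each group, so that array differences are without replicate error and their precision is limited by the number of arrays.

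The proteasome is the barrel-shaped protease that degrades proteins tagged with ubiquitin. Its 20S core is built of alpha rings, which gate the entrance, around beta rings, which hold the cutting sites, and the 19S cap recognises, unfolds and feeds the substrate. Cells of the immune system also make immunoproteasomes, in which Psmb8, Psmb9 and Psmb10 replace the catalytic subunits Psmb5, Psmb6 and Psmb7, and which together with the interferon-induced activator PA28 (Psme1 and Psme2) shape the peptides shown on MHC class I. Glucocorticoids kill immature thymocytes, and proteasome activity has been linked to that death.

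Values are log2 levels of the deposited arrays or differences of log2 levels, and a difference of 1 is a 2-fold ratio. The known glucocorticoid targets Fkbp5 and Tsc22d3 were 3.72-fold and 6.76-fold higher with dexamethasone than with PBS in living animals, and 4.30-fold and 5.02-fold higher with dexamethasone than with ethanol in culture. Markers of the T lineage had a median level between 11.06 and 11.65 on the 5 arrays and those of double-positive thymocytes between 10.24 and 10.96, so the thymic label held. Markers of the thymic stroma were present in the 3 suspensions taken straight from animals and low in both cultures. The thymic epithelial markers had a median of 9.90 with injected dexamethasone, 9.96 with PBS, 4.32 in dexamethasone culture, 4.16 in ethanol culture and 9.91 in untreated suspension. Macrophage markers had a median of 8.97 with injected dexamethasone, 8.54 with PBS, 3.93 in dexamethasone culture, 4.30 in ethanol culture and 8.56 in untreated suspension. In such bulk samples, fewer cells of a type and less RNA per cell cannot be told apart.

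Standard proteasome transcripts varied less over the 5 arrays than genes did at the median. The median range of a standard member over the 5 arrays was 0.33, against 0.56 for the 5 immunoproteasome members and 0.61 for all 9882 genes that passed the level filter (the kept genes). Among kept genes with a mean of at least 8.12, the 10th percentile of the member means, the median range was 0.49. None of the 36 standard members spanned 2-fold, where 23.6% of kept genes did, and 5 of the 36 (13.9%) spanned 1.5-fold, where 52.8% of kept genes did, and 40.3% of those with a mean of at least 8.12. Psmc6, an ATPase of the cap, had the narrowest range, 0.06. Psmb10 had the widest, 1.49, and was the single member to span 2-fold. The ethanol culture held the lowest level of 15 of the 36 standard members and the injected dexamethasone array that of 12. The highest level fell on the PBS array for 11, on the dexamethasone culture for 11 and on the untreated array for 11. These counts were not made over kept genes, so whether they are particular to the members is not known.

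**Figure D1:**
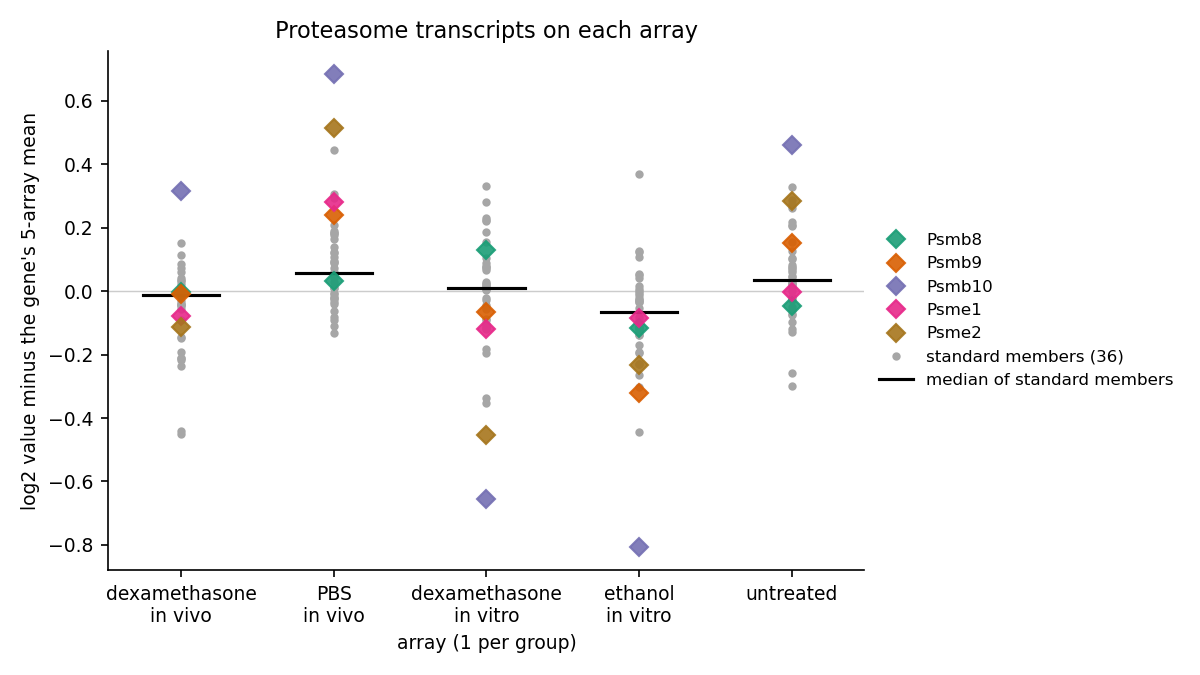
Each point is a member on 1 array, plotted as its log2 value minus its own mean over the 5 arrays (vertical axis), with the arrays along the horizontal axis; grey points are the 36 standard members, coloured diamonds the 5 immunoproteasome members, and black bars the medians of the standard members. The bars lie between -0.07 in ethanol culture and 0.06 with PBS, while Psmb10 runs between -0.81 and 0.68.

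The alpha ring of the core was measured by 7 members, and their responses were small. Psma6 read 11.24 with injected dexamethasone and 11.21 with PBS, 11.53 in dexamethasone culture and 11.13 in ethanol culture, and 11.13 untreated. The dexamethasone culture thus stood alone above 4 similar arrays, and the difference in culture was 0.40. Psma7 read 9.68 with injected dexamethasone and 9.87 with PBS, 9.31 in dexamethasone culture and 9.49 in ethanol culture, and 9.95 untreated. Both cultures were the lowest for Psma7, and it was lower with dexamethasone by 0.19 in animals and by 0.18 in culture. Psma4 read 10.47 with injected dexamethasone and 10.81 with PBS, 10.41 in dexamethasone culture and 10.22 in ethanol culture, and 10.67 untreated, so its 2 responses had opposite signs, -0.34 in animals and 0.20 in culture. Psma1 read 10.42 with injected dexamethasone and 10.30 with PBS, 10.44 in dexamethasone culture and 10.23 in ethanol culture, and 10.27 untreated, and was higher with dexamethasone in both settings (0.12 and 0.21). Psma5 stayed between 10.31 and 10.45 on all 5 arrays. Psma2 and Psma3 differed by -0.21 and -0.05 in animals and by 0.06 and 0.01 in culture.

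The constitutive beta subunits include the 3 catalytic ones that immunoproteasome subunits can replace: Psmb5 (chymotrypsin-like), Psmb6 (caspase-like) and Psmb7 (trypsin-like). The promoters of Psmb5 and Psmb6 are printed because these subunits behaved differently in culture and because both windows hold a TGACNNNGC motif, an antioxidant-type element, in capitals. They are the 250 bases before the annotated start in RefSeq, build GRCm38.p6, 5′ to 3′ on the gene's strand, at chr14:54617996-54618245 on the minus strand and at chr11:70525107-70525356 on the plus strand.
Psmb5: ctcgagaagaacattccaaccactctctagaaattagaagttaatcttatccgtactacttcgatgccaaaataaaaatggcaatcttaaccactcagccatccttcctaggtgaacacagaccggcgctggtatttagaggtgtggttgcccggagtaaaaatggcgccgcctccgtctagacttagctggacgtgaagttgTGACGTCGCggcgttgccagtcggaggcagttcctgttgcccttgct
Psmb6: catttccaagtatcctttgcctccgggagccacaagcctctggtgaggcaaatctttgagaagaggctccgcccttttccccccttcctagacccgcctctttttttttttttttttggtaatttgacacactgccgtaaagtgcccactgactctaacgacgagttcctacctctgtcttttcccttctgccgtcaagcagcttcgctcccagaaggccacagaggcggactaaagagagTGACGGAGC
The motif lies 47 to 39 bases before the start of Psmb5 and 9 to 1 bases before that of Psmb6. Psmb5 read 9.72 with injected dexamethasone and 9.83 with PBS, 9.52 in dexamethasone culture and 9.48 in ethanol culture, and 9.98 untreated. Psmb6 read 9.94 with injected dexamethasone and 9.95 with PBS, 10.04 in dexamethasone culture and 9.96 in ethanol culture, and 9.98 untreated. Ethanol culture was thus lower than untreated suspension by 0.51 for Psmb5 and by 0.01 for Psmb6, while the responses to dexamethasone were -0.11 in animals and 0.05 in culture for Psmb5, and -0.01 and 0.08 for Psmb6. Psmb7 read 10.73 with injected dexamethasone and 11.02 with PBS, 10.95 in dexamethasone culture and 10.74 in ethanol culture, and 10.95 untreated, with responses of -0.28 in animals and 0.21 in culture. Psmb3, a non-catalytic subunit, read 10.10 with injected dexamethasone and 10.05 with PBS, 9.96 in dexamethasone culture and 9.69 in ethanol culture, and 9.96 untreated. Ethanol culture was the lowest array for Psmb3, and its difference in culture was 0.27. All 7 constitutive beta subunits were higher with dexamethasone than with ethanol in culture, by 0.00 to 0.27, and 5 of 7 were lower with dexamethasone than with PBS in animals. Of all kept genes, 40.7% were lower in that culture comparison and 58.6% were lower in animals.

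The 3 immunoproteasome beta subunits shared a direction, but not a size, in each of the 4 comparisons of array pairs used here. Against the untreated array, dexamethasone was higher for Psmb8 (0.04 in animals and 0.17 in culture) and lower for Psmb9 (-0.16 and -0.22) and Psmb10 (-0.14 and -1.11). The promoter of Psmb9 is printed because Psmb9 sits head to head with Tap1, a peptide transporter gene, on chromosome 17: of the 300 bases that RefSeq gives around each start, 275 are the same stretch read on opposite strands. The 250 bases before the Psmb9 start are at chr17:34187331-34187580 on the minus strand of GRCm38.p6, and the capitals mark a CCAAT box read on the other strand, 8 to 4 bases before the start.
Psmb9: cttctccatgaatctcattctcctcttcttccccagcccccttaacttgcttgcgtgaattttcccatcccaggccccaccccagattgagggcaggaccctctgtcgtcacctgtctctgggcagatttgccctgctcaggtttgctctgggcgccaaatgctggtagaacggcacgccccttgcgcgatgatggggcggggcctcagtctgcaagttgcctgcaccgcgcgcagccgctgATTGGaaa
Psmb9 read 9.61 with injected dexamethasone and 9.86 with PBS, 9.55 in dexamethasone culture and 9.30 in ethanol culture, and 9.77 untreated. Tap1, given because of the shared stretch, read 7.56 with injected dexamethasone and 7.78 with PBS, 7.84 in dexamethasone culture and 7.58 in ethanol culture, and 7.62 untreated. The 2 genes had like differences in both dexamethasone comparisons, -0.25 for Psmb9 and -0.22 for Tap1 in animals and 0.25 and 0.26 in culture, but not between ethanol culture and untreated suspension, with -0.47 for Psmb9 and -0.04 for Tap1. Members on other chromosomes had similar pairs of values, such as Psmc2 (-0.22 and 0.20) and Psmb7 (-0.28 and 0.21). A part of the shared stretch was not tested. Psmb8, which lies on the far side of Tap1, read 10.69 with injected dexamethasone and 10.72 with PBS, 10.82 in dexamethasone culture and 10.57 in ethanol culture, and 10.64 untreated. It was the steadiest of the 5 immunoproteasome members, with a range of 0.24. Psmb10 read 9.50 with injected dexamethasone and 9.87 with PBS, 8.53 in dexamethasone culture and 8.38 in ethanol culture, and 9.65 untreated. Both cultures lay over 2-fold below untreated suspension for Psmb10, by 1.11 with dexamethasone and by 1.27 with ethanol.

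The activator PA28 is a ring of Psme1 and Psme2, which opens the core without ubiquitin. The 2 genes are neighbours on chromosome 14, separated by Emc9, and their promoters are printed because Psme2 had the lowest difference of all members in both dexamethasone comparisons and Psme1 did not. The windows are at chr14:55578244-55578493 on the plus strand and chr14:55591102-55591351 on the minus strand of GRCm38.p6, the first window listed for Psme2 being used, and have no capitals because none of the motifs searched was found.
Psme1: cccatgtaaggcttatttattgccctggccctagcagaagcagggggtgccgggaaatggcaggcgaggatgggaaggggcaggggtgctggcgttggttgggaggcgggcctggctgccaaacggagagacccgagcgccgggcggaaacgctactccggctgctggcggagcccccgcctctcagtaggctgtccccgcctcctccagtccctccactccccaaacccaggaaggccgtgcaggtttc
Psme2: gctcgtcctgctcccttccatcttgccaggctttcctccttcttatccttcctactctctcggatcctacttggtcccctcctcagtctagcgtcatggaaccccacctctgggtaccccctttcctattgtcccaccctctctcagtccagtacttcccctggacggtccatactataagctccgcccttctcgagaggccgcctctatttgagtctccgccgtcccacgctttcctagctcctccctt
Psme2 read 9.76 with injected dexamethasone and 10.39 with PBS, 9.42 in dexamethasone culture and 9.64 in ethanol culture, and 10.16 untreated. Its difference was -0.63 in animals, a ratio of 0.648, and -0.22 in culture. Psme1 read 9.97 with injected dexamethasone and 10.33 with PBS, 9.93 in dexamethasone culture and 9.97 in ethanol culture, and 10.05 untreated. For Psme1 the PBS array stood alone above 4 similar arrays, and its differences were -0.36 in animals and -0.04 in culture. Mice carry a retrocopy of Psme2, whose transcripts the Psme2 probe set may also detect. That possibility was not tested.

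The 6 ATPases of the cap form the ring that unfolds substrates. Psmc4 read 10.01 with injected dexamethasone and 9.97 with PBS, 10.25 in dexamethasone culture and 9.84 in ethanol culture, and 10.08 untreated. Its difference in culture, 0.41, was the highest of all members there, but this rests on the probe set used. A second probe set of Psmc4, also above the level filter, differed by 0.06 in culture and by -0.34 in animals. Psmc5 read 9.27 with injected dexamethasone and 9.60 with PBS, 9.44 in dexamethasone culture and 9.54 in ethanol culture, and 9.59 untreated. Psmc2 read 10.01 with injected dexamethasone and 10.23 with PBS, 10.02 in dexamethasone culture and 9.82 in ethanol culture, and 10.18 untreated. Psmc5 was lower with dexamethasone in both settings (-0.33 and -0.10), whereas Psmc2 had opposite signs (-0.22 and 0.20). Psmc1 read 9.12 with injected dexamethasone and 9.01 with PBS, 8.88 in dexamethasone culture and 8.92 in ethanol culture, and 9.08 untreated. Psmc3 and Psmc6 differed by less than 0.10 in both dexamethasone comparisons.

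The 10 other cap subunits measured under their own symbols carry the ubiquitin receptors and the deubiquitinase. Psmd8, a lid subunit, read 10.20 with injected dexamethasone and 10.52 with PBS, 10.01 in dexamethasone culture and 10.17 in ethanol culture, and 10.13 untreated. The PBS array was the highest for Psmd8, 0.38 above untreated. Psmd1, a scaffold of the base, read 8.73 with injected dexamethasone and 8.99 with PBS, 8.80 in dexamethasone culture and 8.89 in ethanol culture, and 9.18 untreated, so every handled suspension lay below the untreated one. Psmd11, a lid subunit, read 9.02 with injected dexamethasone and 8.87 with PBS, 8.90 in dexamethasone culture and 8.84 in ethanol culture, and 9.17 untreated. Psmd7, the partner of the deubiquitinase, read 8.27 with injected dexamethasone and 8.27 with PBS, 8.23 in dexamethasone culture and 8.14 in ethanol culture, and 8.49 untreated. These 2 genes shared with Psmd1 a highest value in untreated suspension. Psmd3, a lid subunit, read 8.38 with injected dexamethasone and 8.67 with PBS, 8.77 in dexamethasone culture and 8.74 in ethanol culture, and 8.52 untreated. Psmd4, a ubiquitin receptor, read 10.09 with injected dexamethasone and 10.16 with PBS, 10.18 in dexamethasone culture and 10.11 in ethanol culture, and 9.97 untreated, the lowest of the 5. The deubiquitinase Psmd14 differed by -0.18 in animals and by 0.00 in culture.

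Assembly chaperones help to build the particle and leave it. Psmd5, which binds an ATPase during cap assembly, read 7.68 with injected dexamethasone and 8.22 with PBS, 8.15 in dexamethasone culture and 8.23 in ethanol culture, and 8.34 untreated. The injected dexamethasone array stood alone below 4 similar arrays, at -0.53 against PBS, and in culture the difference was -0.09. Psmd9, another cap chaperone, read 6.48 with injected dexamethasone and 6.98 with PBS, 7.26 in dexamethasone culture and 7.30 in ethanol culture, and 6.63 untreated. It was -0.50 against PBS in animals, but -0.04 with the mean of its 4 probe sets and -0.15 against the untreated array, and ethanol culture was 0.67 above untreated suspension. All probe sets of Psmd9 other than the one used lay below the level filter, so that mean draws on low signals. Psmd10 (gankyrin) read 7.42 with injected dexamethasone and 7.50 with PBS, 7.87 in dexamethasone culture and 7.76 in ethanol culture, and 7.62 untreated, the cultures being the highest. The chaperones of the 20S core, Psmg1, Psmg2 and Psmg3, carry older symbols in the file and therefore fall outside the rule. Psmg1 read 8.05 with injected dexamethasone and 8.68 with PBS, 8.47 in dexamethasone culture and 8.40 in ethanol culture, and 8.65 untreated, so that here too the injected dexamethasone array was the lowest, at -0.64 against PBS. Psmg2 and Psmg3 were each at -0.26 in animals, and at 0.23 and 0.04 in culture. Psmd6, a cap subunit also found under an older symbol, differed by -0.12 and 0.07.

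Of the remaining regulators, Psme3 (PA28 gamma, an activator of the nucleus) read 7.60 with injected dexamethasone and 8.05 with PBS, 7.26 in dexamethasone culture and 7.16 in ethanol culture, and 7.93 untreated. Both cultures were the lowest for Psme3, and in animals dexamethasone was at -0.44 against PBS. Psme4 (PA200, another nuclear activator) read 8.95 with injected dexamethasone and 8.88 with PBS, 9.18 in dexamethasone culture and 9.01 in ethanol culture, and 8.94 untreated. Psmf1, which encodes the regulator PI31, read 7.63 with injected dexamethasone and 8.03 with PBS, 8.06 in dexamethasone culture and 7.89 in ethanol culture, and 7.58 untreated. For Psmf1 the injected dexamethasone and untreated arrays were the low ones, and the responses had opposite signs, -0.40 in animals and 0.17 in culture.

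In living animals, standard proteasome transcripts differed between dexamethasone and PBS about as the kept genes did, and the immunoproteasome members had a lower median. The median difference was -0.36 over the 5 immunoproteasome members, all 5 below 0, and -0.10 over the 36 standard members, 25 of them below 0, against -0.07 over all kept genes, 58.6% of which were below 0. The gap between the medians of immunoproteasome and standard members was -0.26 with PBS as the baseline and -0.08 with the untreated array as the baseline, where the immunoproteasome median was -0.14. Psme2, at -0.63, was the 1 member of 41 at least 1.5-fold lower, and 0 were at least 1.5-fold higher. The same fold was passed by 7.37% of kept genes below PBS and by 6.48% above it. No member differed 2-fold, where 2.71% of kept genes were higher and 1.48% lower by that much. The 5 lowest members were Psme2, Psmd5, Psmd9, Psme3 (-0.44) and Psmf1 (-0.40), which are activators, cap chaperones and an inhibitor. These classes were not low throughout, since the activator Psme4 was at 0.07 and the cap chaperone Psmd10 at -0.08. The 5 highest were Psmd11 (0.15), Psma1 (0.12), Psmc1 (0.10), Psma5 (0.08) and Psme4 (0.07). Restricted to the 30 standard subunits of the core and cap, the median was -0.06. The authors' deposited table of this comparison, which lists 1260 probe sets with an absolute difference of 1.00 or more, holds 0 of the 95 probe sets of the 42 symbols. On the same pair of arrays all 6 T lineage markers were lower (median -0.52), all 10 double-positive thymocyte markers were lower (median -0.35), and 9 of 10 macrophage markers were higher (median 0.43). Their part in the proteasome differences was not tested.

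In culture, most proteasome transcripts were slightly higher with dexamethasone than with ethanol. The median difference was 0.15 over the immunoproteasome members, 0.07 over the standard members and 0.04 over all kept genes. Of the standard members 27 were higher and 8, or 22.2%, were lower, where 40.7% of kept genes were lower. No member differed 1.5-fold, which 4.37% of kept genes did upwards and 3.74% downwards, nor 2-fold (1.53% upwards and 0.86% downwards). The 5 highest members were Psmc4 (0.41), Psma6 (0.40), Psmb3 (0.27), Psmb9 (0.25) and Psmb8 (0.24). The 5 lowest were Psme2 (-0.22), Psma7 (-0.18), Psmd8 (-0.16), Psmc5 (-0.10) and Psmd1 (-0.09). The 3 immunoproteasome beta subunits were all higher with dexamethasone, while both PA28 genes were lower. Dendritic cell markers were lower in 7 of 8 cases (median -0.71) and double-positive thymocyte markers in 9 of 10 (median -0.37) on the same pair of arrays, and their part was not tested. The direction in culture depends on the baseline. With the untreated array in place of ethanol, the median was -0.05 over the standard members, 22 of 36 of them lower. It was -0.22 over the immunoproteasome members and 0.04 over kept genes, 43.9% of which were lower.

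The sign of the response differed between the settings for many members. Of the 36 standard members, 17 (47.2%) were lower with dexamethasone in animals and higher in culture, against 29.2% of kept genes. A further 9 were higher in both settings, 7 were lower in both, 1 was higher in animals and lower in culture, and 2 had a difference of exactly 0. Among the 5 immunoproteasome members, the 3 beta subunits were lower in animals and higher in culture, and Psme1 and Psme2 were lower in both. The median in vivo minus in vitro difference was -0.41 over the immunoproteasome members, -0.16 over the standard members and -0.12 over kept genes. With 1 array per group, none of these differences between settings could be tested. The signs also depend on the PBS and ethanol arrays as baselines. Against the untreated array, the standard median was -0.06 in animals and -0.05 in culture, and that of kept genes was -0.08 and 0.04. Members with opposite signs and both differences beyond 0.154 in size were Psma4, Psmb7, Psmc2, Psmf1 and Psmb9.

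**Figure D2:**
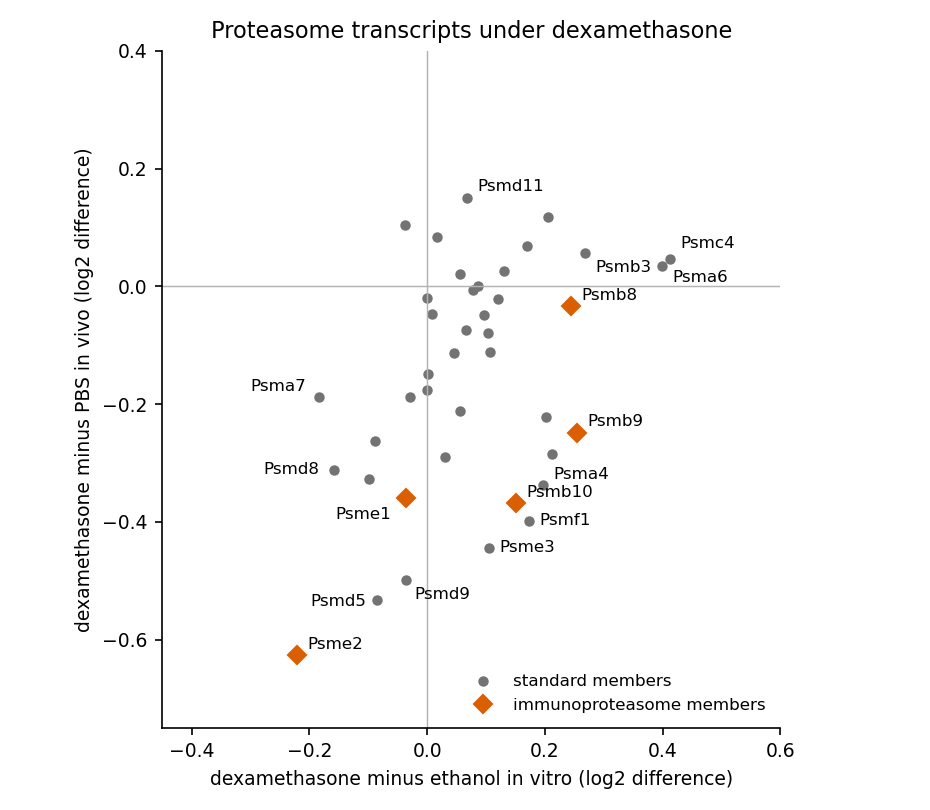
Each point is a member, with the log2 difference of dexamethasone minus ethanol in vitro on the horizontal axis and of dexamethasone minus PBS in vivo on the vertical axis; circles are the 36 standard members and diamonds the 5 immunoproteasome members. Points crowd the lower right, lower in vivo and higher in vitro, and Psme2 lies at -0.63 in vivo and -0.22 in vitro.

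The injection itself went with little difference in standard members. Between PBS and untreated suspensions the median difference was 0.01 over the standard members, 20 higher and 16 lower, and -0.01 over kept genes, 50.9% of which were lower. The 5 immunoproteasome members were all higher with PBS, by 0.08 to 0.29 (median 0.22). No member differed 1.5-fold, which 1.69% of kept genes did upwards and 2.5% downwards, nor 2-fold (0.192% upwards and 0.374% downwards). The 5 highest members were Psmf1 (0.45), Psmd8 (0.38), Psmd9 (0.35), Psme1 (0.29) and Psme2 (0.23), and the 5 lowest were Psmd11 (-0.30), Psmd7 (-0.21), Psmd1 (-0.19), Psmb5 (-0.15) and Psma5 (-0.14). The median absolute difference over kept genes was 0.15 in this pair, the nearest the series has to a spread between like pools, and 29 of the 41 members lay within it. Because the PBS array is the baseline of the in vivo comparison, a high PBS value enters both comparisons.

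Among the 4 comparisons, ethanol culture minus untreated had the widest spread of proteasome differences (SD over the 41 members 0.309). It was also the widest for all kept genes, with an SD of 0.872, against 0.294 to 0.482 in the other comparisons. Against untreated suspension, the median was -0.47 over the immunoproteasome members, all 5 lower, and -0.11 over the standard members, 25 of 36 lower, where the median of kept genes was 0.01 and 46.4% were lower. Psmb10 was lower by 1.27, a ratio of 0.416, and was the 1 member at least 2-fold lower, against 8.07% of kept genes. None was 2-fold higher, against 3.1%. At 1.5-fold, 2 members were lower (Psmb10 and Psme3) and 1 was higher (Psmd9), against 14.3% and 10.9% of kept genes. The 5 lowest members were Psmb10, Psme3 (-0.77), Psme2 (-0.52), Psmb5 (-0.51) and Psmb9 (-0.47). The 5 highest were Psmd9 (0.67), Psmf1 (0.31), Psmd3 (0.22), Psmd10 (0.15) and Psmd4 (0.14). Markers of the stroma were far lower in the same pair: all 10 of thymic epithelium (median -5.73), all 10 of macrophages (median -3.79), all 8 of fibroblasts (median -3.22) and 7 of 8 of dendritic cells (median -1.06). Psmb11, the catalytic subunit of the thymoproteasome of cortical thymic epithelium and no member here, was lower by 4.07. Markers of the T lineage (median 0.11) and of double-positive thymocytes (median 0.02) were split evenly between higher and lower, while 6 of 7 mature thymocyte markers were higher (median 1.07). The part of the stroma and of mature thymocytes in the proteasome differences was not tested.

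**Figure D3:**
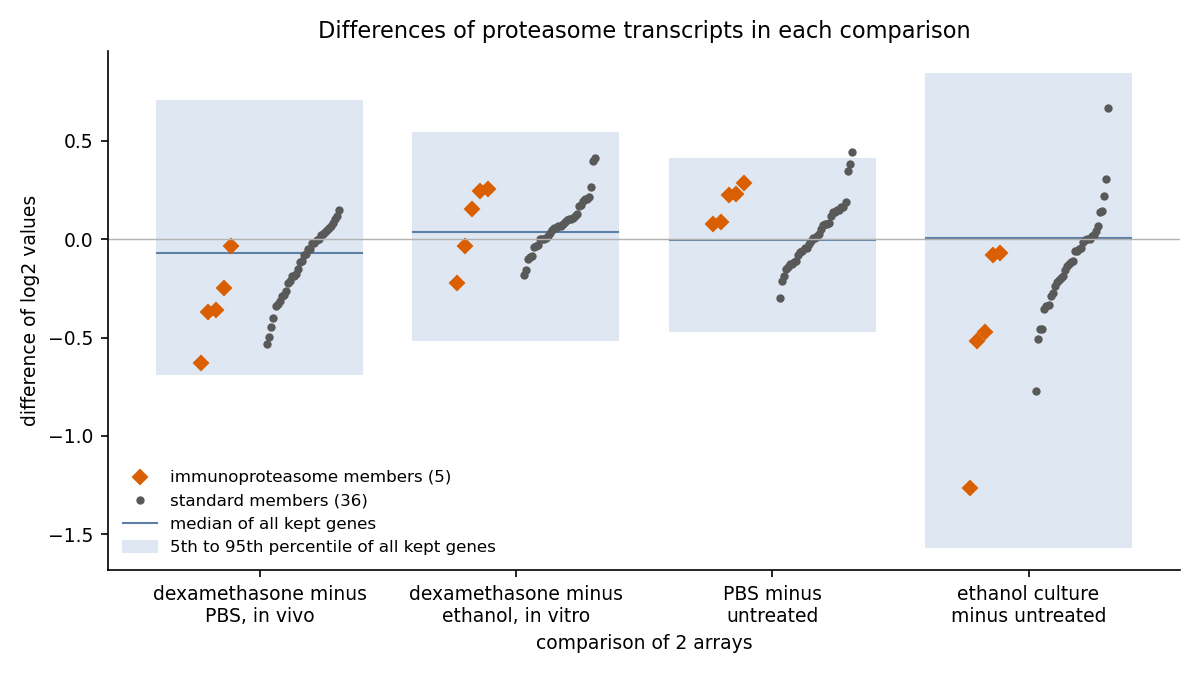
Differences of log2 values (vertical axis) in the 4 comparisons of array pairs (horizontal axis); each orange diamond is 1 of 5 immunoproteasome members and each grey point 1 of 36 standard members, both ordered by value, the blue line is the median of all kept genes and the shaded box their 5th to 95th percentile. All members lie inside the boxes except Psmf1 in PBS minus untreated (0.45), and Psmb10 reaches -1.27 in the comparison of ethanol culture with untreated suspension.

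Each replaceable catalytic subunit was set against its immunoproteasome counterpart by difference, not by level. In animals, dexamethasone minus PBS gave a gap of -0.24 for Psmb9 minus Psmb6, -0.08 for Psmb10 minus Psmb7, and 0.08 for Psmb8 minus Psmb5. In culture, dexamethasone minus ethanol gave 0.20 for Psmb8 minus Psmb5, 0.18 for Psmb9 minus Psmb6, and -0.06 for Psmb10 minus Psmb7. The gaps in ethanol culture minus untreated were larger and ran in different directions: -1.06 for Psmb10 against Psmb7, -0.46 for Psmb9 against Psmb6, and 0.44 for Psmb8 against Psmb5. Between PBS and untreated suspension all 3 gaps were above 0, from 0.11 to 0.23. The gaps were not tested.

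A dexamethasone difference shared by animals and culture was tested by limma over the 4 arrays of both settings, with the setting as a block. No member was called as rising or falling. Of the 41 members 0 were called at an adjusted p of 0.05, and 1 had an unadjusted p under 0.05, whereas 231 kept genes rose (2.34%) and 144 fell (1.46%), 3.79% of the 9882 tested, and 1262 had an unadjusted p under 0.05. The lowest common difference was that of Psme2, -0.42 (SE 0.149), with a limma adjusted p of 0.219 and lower with dexamethasone in both settings. Psmd5 (-0.31), Psmd9 (-0.27), Psmd8 (-0.24) and Psmc5 (-0.21) followed. The highest were Psmc4 (0.23), Psma6 (0.22), Psma1 (0.16), Psmb3 (0.16) and Psme4 (0.12). For Psmc4 and Psmb3 this rests on the probe set used. The second one of Psmc4 differed by -0.34 in animals and by 0.06 in culture, and that of Psmb3 by -0.22 and 0.23. The median was -0.01 over the members and -0.02 over kept genes. All 41 of limma's 95% intervals lay within 2-fold either way, between -0.76 (the lower bound of Psme2) and 0.55 (the upper bound of Psmc4), and 37 lay within 1.5-fold. The interval of Psme2, from -0.76 to -0.09, was the 1 that excluded 0, without adjustment for the number of genes. The smallest absolute difference of any called gene was 0.43. The fit has 1 residual degree of freedom per gene, the difference between the 2 settings. The p-values and the intervals thus hold no information on how pools of the same group vary.

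Genes that work beside the proteasome gave a few calls. Of 15 measured regulators and subunits with other symbols 1 rose, of 13 genes of ubiquitin, its activation and its shuttles 0 were called, of 11 genes of class I peptide loading 1 rose, of 10 interferon and immunoproteasome regulators 1 rose and 1 fell, and of 4 tested ubiquitin ligases linked to glucocorticoids in muscle 1 rose. An unadjusted p under 0.05 was found for 1 of the 15, 0 of the 13, 2 of the 11, 5 of the 10 and 1 of the 4. Of the 9882 kept genes 2.34% rose, 1.46% fell, and 1262 had an unadjusted limma p under 0.05. The lists were chosen with earlier results of these data known, so their calls are not independent findings. Ecpas, listed in the file under an older symbol, encodes an adaptor that tethers the cap to the core. It read 9.08 with injected dexamethasone and 7.73 with PBS, 9.25 in dexamethasone culture and 7.86 in ethanol culture, and 8.07 untreated. Both dexamethasone arrays lay above the 3 others, and Ecpas rose by 1.37 (SE 0.163), with a limma adjusted p of 0.00126. All 4 of its probe sets were higher with dexamethasone in both settings, by 1.35 to 2.41 in animals and by 0.67 to 1.41 in culture. Tap2, the transporter subunit next to Psmb8 on chromosome 17, read 10.42 with injected dexamethasone and 9.25 with PBS, 10.57 in dexamethasone culture and 9.69 in ethanol culture, and 9.09 untreated. It rose by 1.03 (SE 0.138; limma adjusted p = 0.00289), while its neighbours Psmb8, Psmb9 and Tap1 had opposite signs in the 2 settings. The ubiquitin ligase Cblb rose by 1.04 (SE 0.168; limma adjusted p = 0.00796) and the cytokine receptor kinase Jak1 by 0.80 (SE 0.107; limma adjusted p = 0.00273). Irf8, an interferon regulatory factor known to act on immunoproteasome genes, read 7.73 with injected dexamethasone and 8.48 with PBS, 5.49 in dexamethasone culture and 6.57 in ethanol culture, and 8.48 untreated. It fell by 0.92 (SE 0.200; limma adjusted p = 0.0329), a call that every alternative run removed. Without the setting block or without the level filter 0 genes were called, Ecpas among those lost. The calls of Tap2 and Cblb were also lost with the mean of all probe sets, and those of Tap2 and Jak1 without the mean-variance trend.

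Uncalled members of these lists are given by value. Irf1, an inducer of the immunoproteasome genes, was at -0.71 in animals and -0.42 in culture. The muscle ligase Fbxo32 (atrogin-1) was at 0.00 in animals and -0.46 in culture. Uba6, an activating enzyme of ubiquitin, was at -0.49 in animals, and the shuttle Rad23b was at 0.15 in culture, the highest of its list there. The class I loading list was lower in ethanol culture than in untreated suspension for 9 of 11 genes, with a median of -0.69, led by H2-D1 (-1.33), H2-K1 (-1.22) and Calr (-1.08). Ddi2, Vcp and Fbxo40 were not analysed here.

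**Figure D4:**
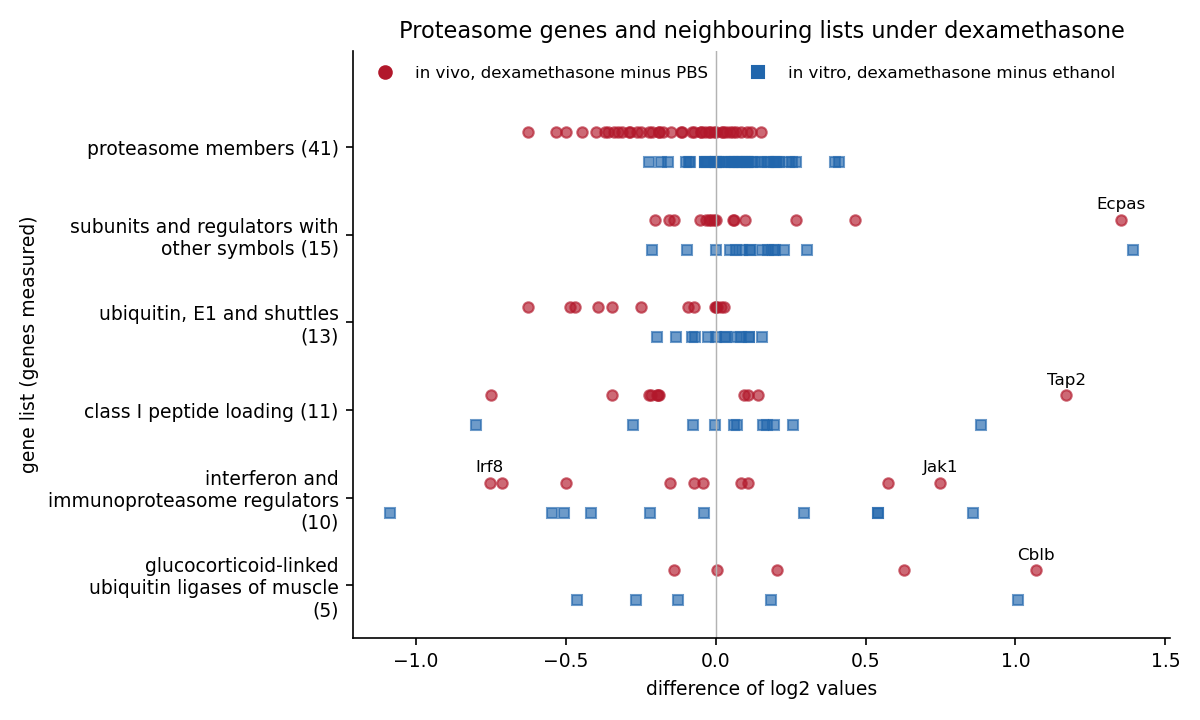
Each row is a gene list with the number of genes measured, and the horizontal axis is the difference of log2 values; red circles are dexamethasone minus PBS in vivo and blue squares dexamethasone minus ethanol in vitro, 1 mark per gene. The 41 proteasome members lie between -0.63 and 0.41, and Ecpas, at 1.35 and 1.39, lies apart from them.

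Promoter windows were available for 36 of the 42 symbols, Psmc3ip included. On both strands of the 250 bases before the start, 5 motifs were searched in these and in all 27025 genes with a window. A gene was counted for a motif if any of its windows held it. TGACNNNGC, printed above in Psmb5 and Psmb6, was in 5 of the 36 (13.9%), against 11.5% of all genes with a window. CCAAT, printed in Psmb9, was in 14 (38.9%), Psmc3ip among them, against 37.5%. GAAA followed by any 2 bases and GAAA again, a core of interferon-responsive elements, was in 3 (8.33%), against 3.46%, and in 0 of the 5 immunoproteasome members. The NF-kB element was in 6 (16.7%), against 8.23%, also in 0 of those 5. The palindromic glucocorticoid element, AGAACA and TGTTC with any 3 bases between them, was in 0 of the 36, against 0.0333% of all genes with a window. A match describes letters in a window, not a bound site. The members were spread over 15 chromosomes.

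Psmc3ip, the symbol without a proteasome role, read 5.80 with injected dexamethasone and 6.79 with PBS, 6.88 in dexamethasone culture and 6.74 in ethanol culture, and 6.80 untreated. The injected dexamethasone array alone was low, at -0.99 against PBS, a larger difference than that of any of the 41 other members in that comparison. For 27 of the 42 symbols the array carries more than 1 probe set. Of the 24 other probe sets above the level filter, from 19 symbols, 16 had the same sign as the one used in animals, 19 in the dexamethasone culture comparison, 16 for PBS minus untreated and 13 for ethanol culture minus untreated. The second probe set of Psme3 read 0.62 in culture where the one used read 0.11, and another of Psme4 read 1.79 for ethanol culture minus untreated where the one used read 0.07. The probe sets used for Psma6, Psmc2 and Psme4 are of types that the manufacturer marks as able to detect transcripts of other genes, and 15 members were read by a type marked as detecting several transcripts of 1 gene.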

How the data were processed

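Transcript levels came from 5 arrays, 1 per group, and the files held no values of other samples. The authors deposited a linear intensity per probe set (45101 on each array), which per the submitters' processing notes came from RMA. Neither the RMA version nor the genome build is stated in the labels or files. In the second deposited table, the log2 values equalled the log2 of those intensities to within 7.11e-15. Gene symbols of other genes were updated through a RefSeq table of assembly GRCm38.p6, and promoter windows came from RefSeq, all 42 member symbols matching.

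For each symbol the probe set highest on average was used, and the 9882 genes with a mean of at least 5.28, the median over symbols, were kept. Pairs of arrays were compared as log2 differences, with counts at 1.5-fold and 2-fold and no test. The shared dexamethasone difference was fitted in R 4.3.3 with limma 3.58.1 (setting and dexamethasone, eBayes with a mean-variance trend, tested on simulated data), with Benjamini-Hochberg adjustment over kept genes at 0.05. Everything else ran in Python 3.11.15. The members and the gene lists were chosen with earlier results of these data known. Named were the immunoproteasome members, their catalytic counterparts, the other activators, Psmf1, the 5 highest and 5 lowest members of each comparison and of the fit, and up to 3 highest and 3 lowest of each list; Psma4 and Psmc2 were added because their responses had opposite signs, and the core and cap chaperones found under older symbols and Tap1 were added too. Alternatives were the mean of all probe sets, centred arrays, an offset of 32, updated symbols, no level filter, no setting block, no trend and the untreated array as baseline. Values of 2 genes of these lists are not reported here.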

Additional observations from a re-analysis of the deposited data

Results flagged for a closer look

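For 5 members the response to dexamethasone went one way in animals and the opposite way in culture, each by more than 0.15, the median absolute difference between the PBS and untreated arrays. Every one was lower in animals and higher in culture. Among the 9882 kept genes, with no limit on size, 2884 (29.2%) had those signs and 1240 had the reverse. Kept genes passing the same limit of 0.15 were not counted, so the 5 are not read as particular to the proteasome. The in vivo minus in vitro difference was -0.57 for Psmf1, -0.53 for Psma4, -0.50 for Psmb9, -0.50 for Psmb7 and -0.42 for Psmc2. With 1 array per group these differences between settings were not tested. Against the untreated array instead of ethanol, the culture responses of Psma4, Psmb9 and Psmc2 were below 0 and that of Psmb7 was 0.0076, and against the untreated array instead of PBS the response of Psmf1 in animals was 0.05.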

How the results depend on the processing

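Members called by limma stayed at 0 under every alternative run. The counts of all genes that rose and fell were 92 and 29 with the mean of all probe sets, 93 and 23 with centred arrays, 94 and 32 without the trend, and 0 and 0 both without the setting block and without the level filter (324 and 1313 genes with an unadjusted p under 0.05). The Ecpas call was lost without the block (adjusted p = 0.474) and without the filter (0.711), as were those of Tap2, Jak1 and Cblb. Tap2 was also lost with probe set means (0.129) and without the trend (0.0556), Jak1 without the trend, Cblb with probe set means, and Irf8 under every alternative. Without the level filter, 1073 genes were at least 1.5-fold higher in animals (640 with it), 378 and 443 were higher and lower for PBS (167 and 247), and 2407 were lower in ethanol culture (1411).

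With the untreated array as baseline, chosen after seeing the data, the immunoproteasome median was -0.14 in animals and -0.22 in culture, its gap to the standard median -0.0815 and -0.16, and in culture 1 member was at least 1.5-fold higher and 4 lower (1402 and 1487 of the 9882 kept genes). In that setting Psmd8 (0.0712) and Psmf1 (0.0466) reversed in animals, and Psma4 (-0.26), Psmb3 (-0.00733), Psmc2 (-0.15) and Psmb9 (-0.22) in culture. Reversed here means a change of sign where the reported difference exceeded 0.154 in size. Smaller differences that changed sign are not listed. Among them in culture were Psmb10 (0.152 reported, -1.11 against untreated) and Psme3 (0.11 reported, -0.67 against untreated). With the mean of all probe sets, Psme4 reversed in culture (-0.27), Psmd9 (-0.0340) and Psmd11 (0.19) for PBS, and Psma3 (0.0875), Psmb2 (0.29), Psmd7 (0.0347) and Psmd11 (0.17) for ethanol culture, where 0 members were then 1.5-fold higher and 1 lower. An offset of 32 also left 0 members 1.5-fold higher there. The other probe sets of Psmd9, Psmd11, Psma3 and Psmb2 all lay below the level filter, so their means draw on low signals. With updated symbols 2 members were 1.5-fold lower in animals. Causes were not tested. Centring kept all 168 member values within 0.15 of the values reported. No paired analysis was possible because each group has 1 array and the labels give no replicate numbers; the setting block of the limma fit sets each dexamethasone array against its own vehicle. Leaving out a replicate was not possible either.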
